A study of Homo sapiens with 12 samples.

Results

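A set of 10 genes for neuropeptides and for proteins of the secretory granule was followed: CALCA, CALCB, SST, NPY, VIP, GAL, CHGA, CHGB, SCG2 and SCG3. They were taken by gene symbol from the count files of all 12 libraries, which list 55765 symbols, and all 10 were found there. Reads were counted on 9 of the 10, and SST had none in any library. The libraries came from SH-SY5Y, a human neuroblastoma line that is a subclone of SK-N-SH, differentiated in every group for 7 days in all-trans retinoic acid (ATRA, 10 μM). In the co-treatment experiment, 3 treated samples received hydrogen peroxide (H2O2) throughout those 7 days and 3 controls received ATRA alone. In the pre-treatment experiment, 3 treated samples were exposed to H2O2 for 72 h before ATRA, and 3 controls were not. The deposited design text gives the H2O2 dose as 10 mM and the study's methods as 10 μM. No source used here says that replicates came from separate cultures, so p-values measure the spread between these samples, which may be technical.

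Neuropeptides are made as longer precursors, sorted with granins into dense-core granules, cut by prohormone convertases and released when calcium rises. Chromogranins (CHGA, CHGB) and secretogranins (SCG2, SCG3) are acidic proteins that help to build these granules, and some are themselves cut into peptides. Cells of the sympathetic and adrenal lineage, from which neuroblastoma arises, are known for their content of such granules.

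Depth ranged from 27.6 to 63.2 M reads on genes in the co-treatment libraries and from 41.8 to 98.3 M in the pre-treatment libraries. Pre-treatment controls 1 and 2 differed from control 3 in library make-up. Small structured RNAs took 1.73% of the counts of control replicate 1 and 3.04% of those of control replicate 2. They took 17.7% of those of control replicate 3, close to the treated samples (13.4% to 15.2%). Reads outside genes per counted read were 0.800 and 0.830 in controls 1 and 2, 0.200 in control 3 and 0.343 to 0.462 in the treated samples. Controls 1 and 2 thus lay outside the range of the other 10 libraries in both measures, and in the comparison over controls 1 and 2 these measures move with treatment. Their part in the results of that comparison cannot be told apart from treatment. The pre-treatment comparison is given over controls 1 and 2 (5 libraries) and over all 3 controls (6 libraries). Markers of noradrenergic neuroblastoma summed to 3467 to 4855 normalised read counts (CPM, scaled to equal library size) in the 12 libraries, and among them TH, the first enzyme of catecholamine synthesis, was near 0 (0.0104 to 0.263 CPM). In pre-treatment, group means of DBH were 610 CPM in controls and 213 CPM in treated samples, and those of STMN2 1137 and 1519 CPM. Mesenchymal markers summed to 279 to 455 CPM, mostly TWIST1 and FN1, with PRRX1 near 0, Schwann cell or glial markers to 6.58 to 9.02 CPM, and immune and endothelial markers to 0.0612 to 1.32 CPM. The mesenchymal marker VIM had group means of 7.27 CPM in controls and 16.2 CPM in treated samples in co-treatment and of 4.04 and 21.3 CPM in pre-treatment, and CD44 of 1.00 and 2.25 CPM and of 1.07 and 2.48 CPM. The more abundant TWIST1 was lower in treated samples, at 177.5 and 126.8 CPM in co-treatment and 179 and 165 CPM in pre-treatment. FN1 was higher in treated samples in co-treatment (109.4 and 155.4 CPM) and lower in pre-treatment (152.3 and 118 CPM). The part of these markers in the results was not tested.

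The promoters of CHGA, SST and VIP are shown because all 3 genes are known targets of cyclic AMP signalling and because they span the range of levels, from abundant to not detected. The set of RefSeq promoters used here, on GRCh38.p14, held 6 of the 10 genes (CALCA, SST, NPY, VIP, CHGA and SCG3). It held no entry for CALCB, GAL, CHGB and SCG2, whose promoters were thus not searched. Each line holds the 250 bases before the annotated start, 5′ to 3′ on the gene's own strand, and capitals mark the cyclic AMP response element TGACGTCA or, in VIP, its first 7 bases TGACGTC. The positions are chr14:92922900-92923149 (+) for CHGA, chr3:187670395-187670644 (-) for SST and chr6:152750547-152750796 (+) for VIP.
CHGA: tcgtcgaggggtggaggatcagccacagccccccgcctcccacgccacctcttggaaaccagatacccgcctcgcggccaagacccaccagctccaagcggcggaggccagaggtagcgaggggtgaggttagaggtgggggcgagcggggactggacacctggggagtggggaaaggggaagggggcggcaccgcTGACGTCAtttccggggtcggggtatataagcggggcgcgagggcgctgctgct
SST: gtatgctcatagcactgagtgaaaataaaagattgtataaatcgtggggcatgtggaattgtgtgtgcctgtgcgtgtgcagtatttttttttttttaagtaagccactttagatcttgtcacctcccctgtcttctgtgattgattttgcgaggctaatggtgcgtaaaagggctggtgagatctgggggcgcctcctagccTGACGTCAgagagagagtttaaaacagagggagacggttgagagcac
VIP: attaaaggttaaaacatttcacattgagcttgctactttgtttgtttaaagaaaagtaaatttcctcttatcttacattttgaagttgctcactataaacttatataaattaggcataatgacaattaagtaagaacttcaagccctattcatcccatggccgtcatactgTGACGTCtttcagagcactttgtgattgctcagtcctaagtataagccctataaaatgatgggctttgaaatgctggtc
Both strands were searched. In these 250 bases, the full TGACGTCA began at -54 in CHGA and at -47 in SST, and 1.646% of 35116 promoters hold it in the same window. TGACGTC or its reverse complement GACGTCA, which lies within every full match, began at -79 in VIP and is present in 3.118% of promoters. CALCA, NPY and SCG3, the other promoters searched, held neither match, so the promoters shown are those with a match. The TATA box letters TATAAA or TTTATA, found in 10.716% of promoters, were present in VIP and SST. The only match in SST began at -215, whereas VIP held one between its TGACGTC and the start. CHGA held neither form, but its sequence reads tatataag between TGACGTCA and the start. This search for exact letters thus cannot tell which of these promoters has a TATA box. A match describes the letters and is not evidence of binding. Among the 6 promoters searched, the 2 matches to the full TGACGTCA belong to an abundantly read gene and a gene with no reads.

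CALCA and CALCB are neighbours on chromosome 11. CALCA (chr11:14988168-14993900, minus strand, hg19) encodes calcitonin and, by alternative splicing, the alpha form of calcitonin gene-related peptide (CGRP), a vasodilator and sensory transmitter. Counts per gene do not separate these products. CALCB (chr11:14926543-15103888, plus strand, hg19) encodes the beta form of CGRP. In the annotation used here, the CALCB gene model spans CALCA on the opposite strand, with 0 exon bases in common. Their longest identical coding stretch is shown because reads within it could belong to either gene. It ran for 57 bases, at chr11:14989244-14989300 (minus strand) in CALCA and chr11:15098932-15098988 (plus strand) in CALCB, in an exon of each gene.
CALCA and CALCB: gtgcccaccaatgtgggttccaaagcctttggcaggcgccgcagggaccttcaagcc
Windows of 50 bases found in both genes made up 0.909% of those of CALCA and 0.542% of those of CALCB, and no window of 75 bases was shared. The strand setting of the counting is not given in the sources used here.

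Per kilobase of exon, SCG2 was the most abundant of the 10 genes in the co-treatment controls with a mean of 350 CPM per kb, followed by CHGA with 271. This order turned with the longest transcript as length, which gave 370.1 CPM per kb for SCG2 and 413 for CHGA. GAL, the precursor of galanin, stood at 71.3 CPM per kb, CHGB at 52.2 and SCG3 at 35.1. VIP (vasoactive intestinal peptide) stood at 8.66 CPM per kb, CALCA at 4.62, NPY (neuropeptide Y) at 3.77 and CALCB at 3.29. Neighbours in this order did not overlap in their 3 libraries, except that CALCA overlapped NPY and NPY overlapped CALCB. SCG2 and CHGA were also the top pair in the other 3 groups, overlapping in both pre-treatment groups. The 9 genes with reads took 0.123% to 0.234% of all counts, of which the 4 granins took 0.116% to 0.217% and the peptide precursors 0.00766% to 0.0179%. On hg19, the other genes lie at chr2:224461658-224467079 (SCG2, minus strand), chr14:93389495-93401630 (CHGA, plus), chr20:5892156-5905999 (CHGB, plus), chr15:51973689-52013223 (SCG3, plus), chr11:68451247-68458643 (GAL, plus), chr7:24323807-24331481 (NPY, plus) and chr3:187386700-187388182 (SST, minus). For SST, the precursor of somatostatin, a count of 0 allows up to 3 reads per library, or 0.0305 to 0.109 CPM, a limit that covers counting error only.

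In co-treatment, CALCA and CALCB rose with H2O2 in every treated sample, and the other 7 genes tested were not called. Genes were called at a false discovery rate (FDR) below 0.05 over all genes tested with an absolute log2 fold change (log2FC, treated over control) above 0.6. The call covered 2 of the 9 genes, both higher, while 0.598% of the 22089 genes tested were called in either direction.

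CALCA was at 10.5, 9.60 and 10.0 CPM in co-treatment control replicates 1 to 3 and at 22.1, 25.8 and 30.7 CPM in treated replicates 1 to 3. Every treated sample lay above every control, and controls varied less than treated samples (10.0 ± 0.453 against 26.2 ± 4.30 CPM, SD, n = 3 each). The log2FC was 1.39 (SE 0.15), a 2.62-fold rise, with an FDR of 0.00166 by edgeR's quasi-likelihood test. CALCB was at 11.8, 13.8 and 13.3 CPM in the controls and at 36.97, 47.0 and 50.6 CPM in the treated samples. These groups did not overlap either (13.0 ± 1.06 against 44.9 ± 7.06 CPM, SD, n = 3 each). The log2FC of CALCB was 1.80 (SE 0.15), a 3.48-fold rise, with an edgeR FDR of 0.00037. With each of the 6 libraries left out in turn, both genes stayed called, at log2FC 1.26 to 1.49 for CALCA and 1.70 to 1.92 for CALCB. In 1 fit over all 12 libraries, which takes 1 estimate of spread from both experiments, neither was called (edgeR FDR 0.989 for CALCA and 0.792 for CALCB), at log2FC 1.39 (SE 0.72) and 1.79 (SE 0.68).

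CALCA made up 47.2%, 41.0% and 43.0% of the counts of CALCA and CALCB together in the co-treatment controls. In the treated samples it made up 37.4%, 35.4% and 37.8%, so each treated sample lay below each control. Exact 95% binomial intervals, which cover counting error only, spanned 38.1% to 50.2% over the controls and 34.0% to 39.8% over the treated samples, so the intervals of the 2 groups overlapped. In the pre-treatment experiment the share was 46.6%, 51.6% and 39.3% in controls and 47.0%, 45.4% and 29.4% in treated samples, and the groups overlapped.

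The other 3 peptide precursors with reads did not pass the test in co-treatment. VIP was at 11.4, 13.95 and 15.8 CPM in controls and 13.4, 18.1 and 17.2 CPM in treated samples, with overlap (log2FC 0.25, SE 0.17, edgeR FDR 0.802). NPY, the lowest of the 9 by count, was at 2.73 to 3.95 CPM in controls and 2.92 to 3.84 CPM in treated samples (log2FC -0.05, SE 0.23, edgeR FDR 0.982). GAL was at 85.6, 82.0 and 111 CPM in controls and 84.5, 62.1 and 50.8 CPM in treated samples. Only treated replicate 1 of GAL lay within the range of the controls (log2FC -0.49, SE 0.18, edgeR FDR 0.439).

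**Figure D1:**
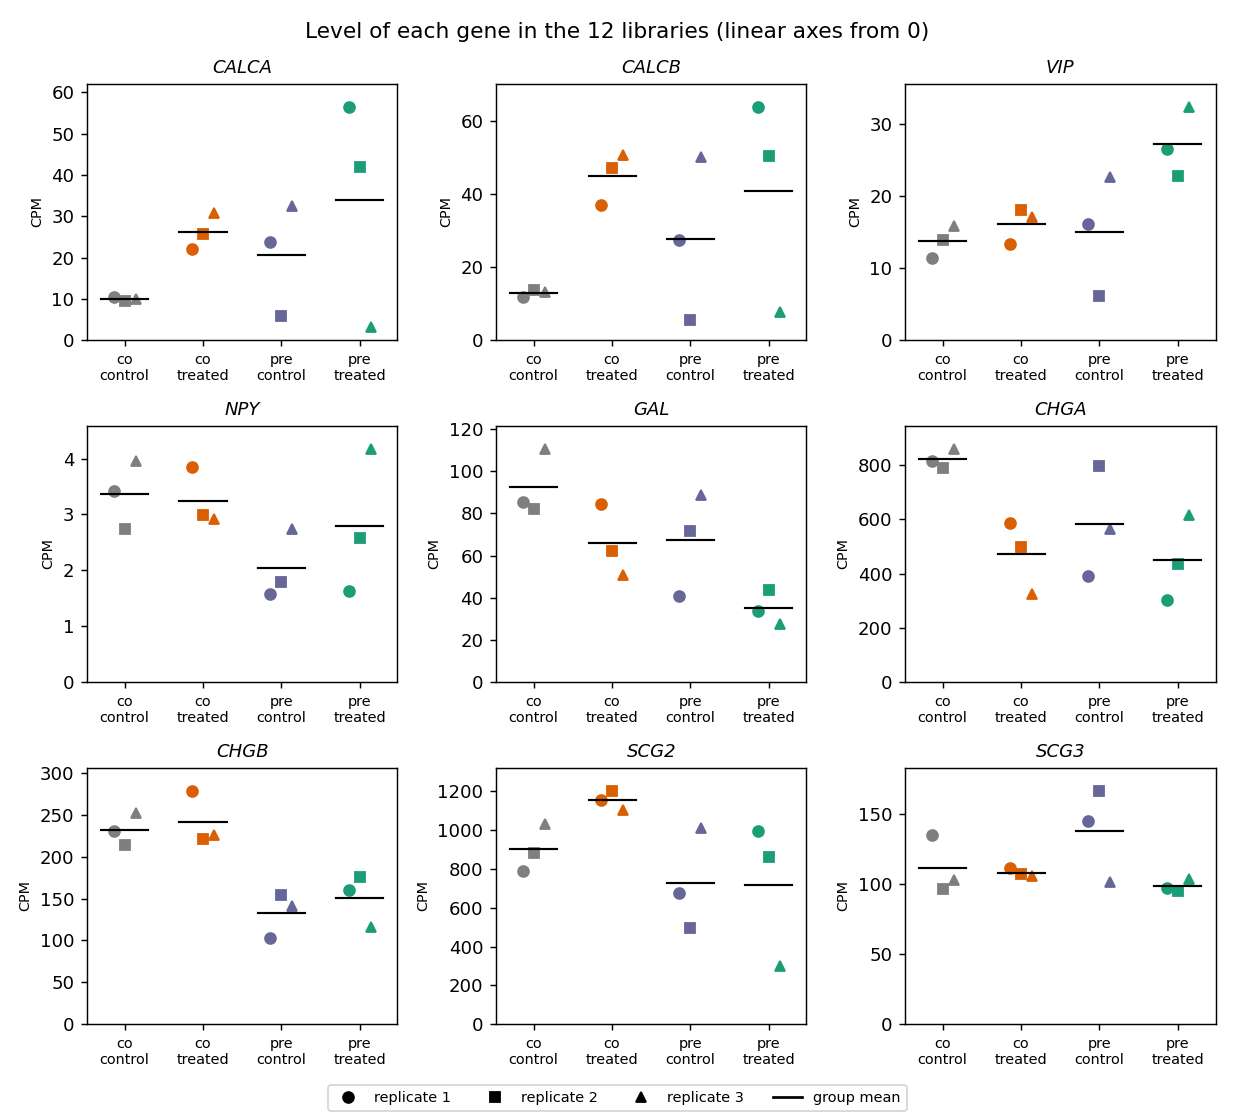
CPM of the 9 genes with reads (vertical axes, linear from 0, scaled per gene) in the 12 libraries, by group (horizontal axis); symbols mark replicates and black lines group means. In co-treatment, the treated samples of CALCA and CALCB lie above all controls and those of CHGA below, and in pre-treatment control replicate 2 and treated replicate 3 are the lowest of their groups for CALCA, CALCB and SCG2.

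Among the granins in co-treatment, CHGA and SCG2 had groups that did not overlap, in opposite directions, yet neither passed the FDR threshold. CHGA, a core granule protein and serum marker of neuroendocrine tumours, was at 814, 788 and 858 CPM in controls and 586, 499 and 326 CPM in treated samples. All treated samples were lower, and treated replicate 3 was the lowest (820 ± 35.5 against 470 ± 132 CPM, SD, n = 3 each). The log2FC was -0.80 (SE 0.19) with an edgeR quasi-likelihood FDR of 0.101. CHGA would be called by edgeR's exact test (FDR 0.0102), by DESeq2 (FDR 0.00258), without the filter on low counts (FDR 5.68e-05) and with a replicate block (FDR 0.042). With each of the 6 libraries left out in turn it was not called (log2FC -0.99 to -0.59, edgeR FDR 0.051 to 0.482). Nor was it called in 1 fit over all 12 libraries (edgeR FDR 0.769).

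SCG2, the precursor of secretoneurin, was at 790, 881 and 1031 CPM in controls and 1155, 1201 and 1103 CPM in treated samples. Every treated sample was higher than every control (log2FC 0.36, SE 0.14, edgeR FDR 0.476). CHGB was at 214 to 252 CPM in controls and 221 to 279 CPM in treated samples (log2FC 0.06, SE 0.13). SCG3, which binds CHGA to the granule membrane, was at 96.4 to 135 CPM in controls and 106 to 112 CPM in treated samples (log2FC -0.04, SE 0.14). CHGB had an edgeR FDR of 0.959 and SCG3 of 0.979, and the log2FC of SCG3 was 0.004 when scaled by library size alone. In co-treatment, groups did not overlap for 4 of the 9 genes (CALCA, CALCB, SCG2 higher and CHGA lower) against 14% of all genes tested.

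In pre-treatment over controls 1 and 2, VIP rose and no other of the 9 genes was called; SCG3 passed the FDR threshold without the fold. The fold threshold was an absolute log2FC above 1. The 1 call among 9 stands beside 11.2% of the 26350 genes tested. Groups did not overlap for VIP and SCG3, 2 of 9, against 57.2% of all genes tested.

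VIP, a relaxant of smooth muscle and a neurotrophic peptide, was at 16.2 and 6.20 CPM in control replicates 1 and 2 and at 26.6, 22.8 and 32.4 CPM in treated replicates 1 to 3. Control replicate 3, at 22.7 CPM, was just under the lowest treated sample. The log2FC was 1.35 (SE 0.36), a 2.55-fold rise, with an edgeR FDR of 0.0272 over 5 libraries. The call ended without control replicate 2 (log2FC 0.83, FDR 0.0819), without treated replicate 1 (log2FC 1.37, FDR 0.059), with library size scaling (FDR 0.0563) and with robust estimation (FDR 0.0531). Without control replicate 1 the log2FC was 2.23, over 1.5 times the fold. Over all 6 libraries VIP was not called (log2FC 0.87, SE 0.42, edgeR FDR 0.48), and 0.0242% of the 24743 genes tested were. In the 6-library comparison VIP alone of the 9 genes had groups that did not overlap, against 16.4% of genes. In the annotation, 326 exon bases of VIP (chr6:153071932-153080900, plus strand, hg19) are shared with LINC02840 on the opposite strand, so reads of the 2 could be confused if strand was not used.

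SCG3 was at 145 and 167 CPM in pre-treatment control replicates 1 and 2 and at 97.6, 95.02 and 104 CPM in treated samples. The treated samples lay close together and all below both controls, whereas control replicate 3 (102 CPM) lay among the treated samples. The log2FC was -0.59 (SE 0.11) with an edgeR FDR of 0.00841 over 5 libraries and -0.44 (SE 0.20) with an FDR of 0.451 over 6. Of all genes tested over 5 libraries, 26.1% passed the FDR threshold at any fold.

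CALCA and CALCB spread more in pre-treatment than in co-treatment. CALCA was at 23.9, 5.83 and 32.4 CPM in control replicates 1 to 3 and at 56.5, 41.9 and 3.24 CPM in treated replicates 1 to 3. CALCB was at 27.4, 5.48 and 49.97 CPM in controls and at 63.7, 50.4 and 7.80 CPM in treated samples. In both genes, control replicate 2 and treated replicate 3 were low and the other 4 libraries high, so the groups overlapped. Over 5 libraries the log2FC of CALCA was 1.26 (SE 0.96, edgeR FDR 0.36) and that of CALCB 1.37 (SE 0.84, edgeR FDR 0.256). With 1 of the 5 libraries left out, the log2FC of CALCA ranged from 0.58 to 2.63 and that of CALCB from 0.65 to 2.98, lowest without control replicate 2 and highest without control replicate 1. Over 6 libraries they were 0.73 and 0.57, with edgeR FDR 0.775 and 0.811. Both would be called by edgeR over 5 libraries without treated replicate 3 (log2FC 1.76, FDR 0.0398 for CALCA and log2FC 1.82, FDR 0.0487 for CALCB). The same held without a filter on low counts (edgeR FDR 1.3e-09 and 2.18e-12) and with a replicate block (edgeR FDR 1.5e-05 and 3.88e-05). In the block fit treated replicate 3 was alone in its block and did not inform the treatment effect. That fit thus sets aside the same low library and is not a separate check. The 95% interval of the fold of CALCA over 5 libraries ran from 0.521 to 11, which includes the 2.62-fold of co-treatment.

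**Figure D2:**
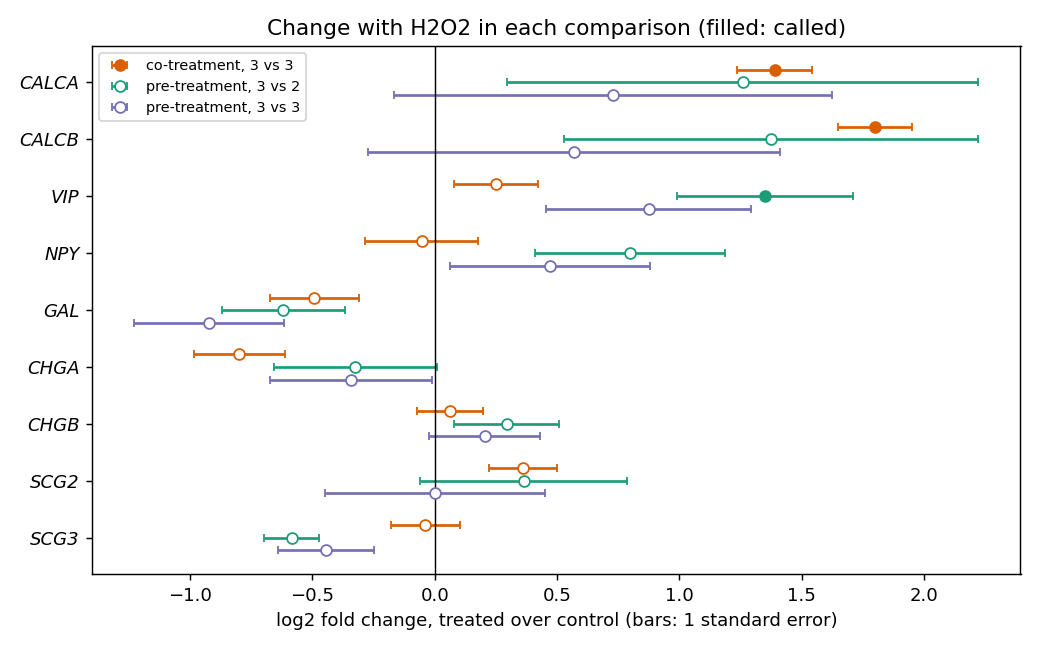
Log2 fold change of treated over control (horizontal axis) for the 9 genes (vertical axis) in co-treatment and in pre-treatment over 5 and 6 libraries; bars are 1 standard error and filled points were called. The filled points are CALCA at 1.39 and CALCB at 1.80 in co-treatment and VIP at 1.35 in pre-treatment over 5 libraries.

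The remaining peptides did not pass in pre-treatment. NPY was at 1.58, 1.80 and 2.74 CPM in controls and 1.63, 2.59 and 4.17 CPM in treated samples (log2FC 0.80, SE 0.39, edgeR FDR 0.16 over 5 libraries). GAL, whose product acts on feeding, mood and nerve growth, was at 41.1, 71.8 and 88.9 CPM in controls and 33.6, 43.9 and 27.5 CPM in treated samples. For GAL, treated replicate 2 lay above the lowest control and the other treated samples below all controls (log2FC -0.62, SE 0.25, FDR 0.103 over 5 libraries; log2FC -0.92, SE 0.31, FDR 0.337 over 6, edgeR).

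CHGA was at 391, 795 and 564 CPM in pre-treatment controls and 302, 434 and 617 CPM in treated samples, and the groups overlapped (log2FC -0.32, SE 0.33, edgeR FDR 0.497 over 5 libraries). SCG2 was at 676, 498 and 1009 CPM in controls and 997, 860 and 298 CPM in treated samples (log2FC 0.36, SE 0.42, edgeR FDR 0.553). Control replicate 2 and treated replicate 3 were again the lowest of their groups for SCG2, and were the highest of their groups for CHGA. CHGB was at 103, 154 and 141 CPM in controls and 160, 176 and 116 CPM in treated samples (log2FC 0.29, SE 0.21, edgeR FDR 0.335).

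**Figure D3:**
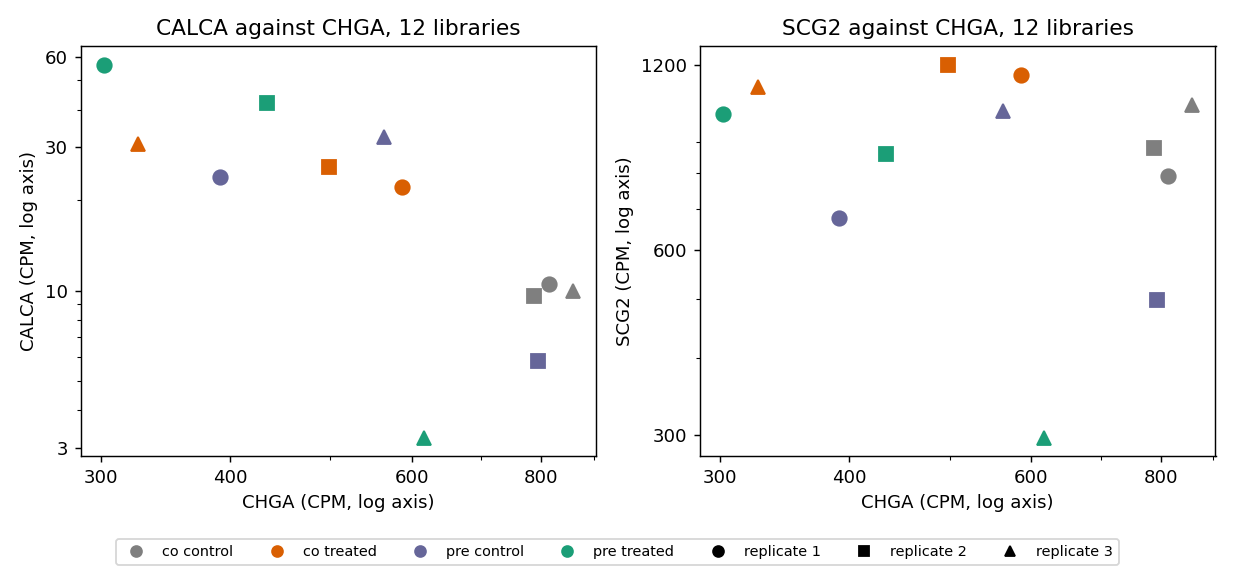
CALCA (left) and SCG2 (right) against CHGA in the 12 libraries, in CPM on log axes; colours mark groups and shapes replicates. Pre-treatment control replicate 2 and treated replicate 3 are at 795 and 617 CPM of CHGA and hold the lowest CALCA, 5.83 and 3.24 CPM, and the 2 lowest SCG2 levels, 498 and 298 CPM.

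The ratio of SCG2 to CHGA counts, chosen after the values were seen and given as a description, was 0.971, 1.12 and 1.2 in co-treatment controls and 1.97, 2.41 and 3.38 in treated samples. In pre-treatment it was 1.73, 0.626 and 1.79 in controls and 3.30, 1.98 and 0.483 in treated samples. The treated samples were higher than the controls in co-treatment, while in pre-treatment control replicate 2 and treated replicate 3 held the 2 lowest ratios of the 12 libraries. In bulk samples, fewer cells of one kind and less RNA per cell cannot be told apart.

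Whether the 2 experiments differed in response was tested by the interaction term over 11 libraries, with 8.02% of 25668 genes called at an FDR below 0.05. None of the 9 genes was called. VIP differed by 1.05 (SE 0.40, edgeR FDR 0.111, unadjusted p 0.0209), SCG3 by -0.60 (SE 0.19, edgeR FDR 0.0632, unadjusted p 0.00687) and NPY by 0.80 (SE 0.45, edgeR FDR 0.267), as pre-treatment minus co-treatment log2FC. The interaction of VIP would be called without the filter (FDR 0.000781), with a replicate block (FDR 0.0404) and without pre-treatment control replicate 1 (1.98, FDR 0.0113), and it was 0.59 without control replicate 2. The interaction of SCG3 would be called by DESeq2 (FDR 0.0446), by library size scaling (FDR 0.0313), with a replicate block (FDR 0.0466) and without co-treatment control replicate 1 (-0.76, FDR 0.00525). It was -0.43 without pre-treatment control replicate 2. With all 12 libraries neither was called, at 0.61 (SE 0.48, edgeR FDR 0.699) for VIP and -0.44 (SE 0.25, edgeR FDR 0.608) for SCG3. CALCA (-0.19, SE 0.97, FDR 0.921) and CALCB (-0.48, SE 0.85, FDR 0.749) had standard errors larger than their estimates. For CALCA the interval of the ratio of folds ran from 0.207 to 3.73 (95%).

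**Figure D4:**
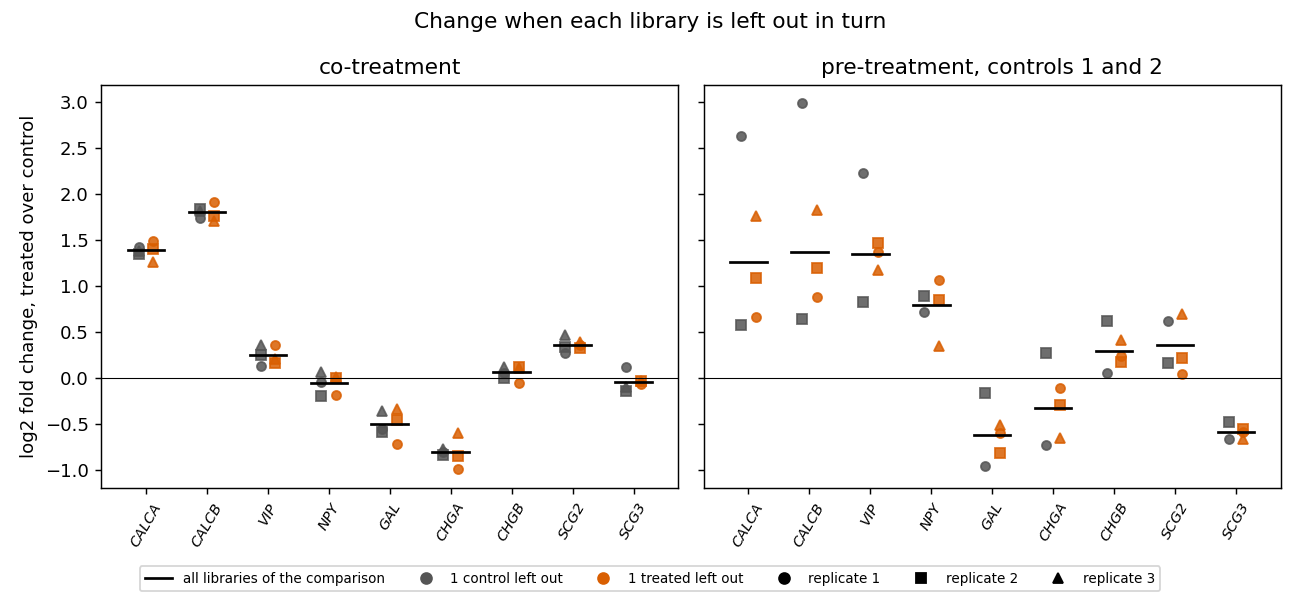
Log2 fold change of treated over control (vertical axis) for the 9 genes when each library is left out in turn (points, shape by replicate, colour by group), with the value over all libraries as a black line; the left panel is co-treatment and the right panel pre-treatment over controls 1 and 2. CALCA and CALCB stay at 1.26 or more in co-treatment, and in pre-treatment CALCA ranges from 0.58 to 2.63 and VIP from 0.83 to 2.23.

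Receptors for the peptides were followed with a list of 22 genes, 21 in the files. Of these, 10 were tested in co-treatment (10% called, against 0.598% of all genes). SSTR2, the somatostatin receptor most often present on neuroendocrine tumours, was the 1 called (higher) and rose from 2.15 ± 0.542 to 12.2 ± 3.50 CPM (SD, n = 3 each; log2FC 2.53, edgeR FDR 0.00136). In 1 fit over all 12 libraries the co-treatment call of SSTR2 ended (edgeR FDR 0.0507). SSTR2 also rose in pre-treatment, from 3.54 and 1.23 CPM in controls 1 and 2 to 11.2, 8.70 and 10.9 CPM (log2FC 2.16, edgeR FDR 0.00722), while its ligand gene SST had no reads. In pre-treatment over 5 libraries 13 were tested and 2 called (15.4%, against 11.2% of all genes), both higher, the other being NPY4R, a receptor for pancreatic polypeptide (log2FC 2.25, edgeR FDR 0.0127). The call of NPY4R ended without control replicate 2 (FDR 0.094). NPY4R stayed under 1.2 CPM in every library. Of the genes for the CGRP receptor, CALCRL, its signalling subunit, had a mean of 0.570 CPM or less in each group, and RAMP1, its partner, was at 27.2 to 47.8 CPM. RAMP3 was at 3.35 ± 0.603 CPM in pre-treated samples against 1.71 and 1.82 CPM in controls 1 and 2, with an edgeR FDR of 0.0241 and a log2FC of 1.00 that did not exceed the fold threshold. SSTR1, SSTR4, SSTR5 and GALR1 had no reads in any library. The receptors' median log2FC was 0.46 in co-treatment and 0.35 in pre-treatment over 5 libraries, against -0.001 and 0.01 over all genes tested.

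Of 54 other peptide precursors, 18 were tested in co-treatment and none was called (median log2FC 0.05). In pre-treatment over 5 libraries, 25 were tested, 2 rose and 1 fell (12% called, against 11.2% of all genes; median log2FC 0.16). NPPB, the precursor of the natriuretic peptide BNP, rose from 0.942 to 3.37 CPM (log2FC 1.91, SE 0.30, edgeR FDR 0.00429). EDN1, the endothelin-1 precursor, was at 0.182 and 0 CPM in controls 1 and 2 and at 0.777, 0.514 and 0.576 CPM in treated samples (edgeR FDR 0.0415). SCT, the secretin precursor, was lower in treated samples, from 0.412 to 0.0550 CPM (edgeR FDR 0.024), a range of few reads. With each of the 5 libraries left out, the call of NPPB held in 5 fits and those of EDN1 and SCT in 1 each.

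Of 19 other granins and prohormone-processing genes, 15 were tested in co-treatment and none was called, and in pre-treatment over 5 libraries 16 were tested and 2 fell (12.5% called, against 11.2% of all genes; median log2FC 0.02). VGF, a granin-like precursor induced by nerve growth factor, was at 619 and 1284 CPM in controls 1 and 2, 394 CPM in control 3, and 145, 239 and 112 CPM in treated samples. All treated samples were below all controls (log2FC -2.46, SE 0.35, edgeR FDR 0.00325 over 5 libraries; FDR 0.317 over 6). CPZ, a carboxypeptidase, was the other, at under 0.64 CPM in every library, and its call held in 2 of the 5 fits that left a library out.

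Of 42 genes for the granule membrane, biogenesis and release, 40 were in the files and 37 were tested in co-treatment. There SYT17 rose and RAB27B fell (5.41% called, against 0.598% of all genes). SYT17, a synaptotagmin-like protein, went from 28.4 ± 5.25 to 59.0 ± 3.63 CPM (SD, n = 3 each; log2FC 1.06, edgeR FDR 0.00749). RAB27B, a small GTPase of granule transport and docking, went from 14.03 ± 2.92 to 5.33 ± 0.822 CPM (SD, n = 3 each; log2FC -1.40, edgeR FDR 0.00749). Both calls ended without treated replicate 3 (FDR 0.0885 for SYT17 and 0.091 for RAB27B) and in 1 fit over all 12 libraries (FDR 0.198 and 0.461). In pre-treatment over 5 libraries 38 were tested, 2 rose (SYT9 and SYTL5) and 3 fell (13.2% called, against 11.2% of all genes). With a library left out, SYT9 stayed called in 3 of 5 fits, SYTL5 in 1 of the 3 fits that tested it and RPH3AL in 2 of 5. Over 5 libraries VAMP2, a fusion protein of vesicles, fell with a log2FC of -1.75 (edgeR FDR 0.0018) and RPH3AL, a Rab effector, with -1.06 (edgeR FDR 0.0114). For VAMP2, control replicate 3 (4.97 CPM) lay below every treated sample (5.25 to 7.75 CPM). For RPH3AL it was at 2.805 CPM, within the treated range (2.259 to 3.085 CPM). Neither was called over 6 libraries (edgeR FDR 0.379 for VAMP2 and 0.389 for RPH3AL).

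Of 22 transcription factors and coactivators of neuroendocrine genes, 18 were tested in each comparison. In co-treatment 2 fell and none rose (11.1% called, against 0.598% of all genes). INSM2 was among them (2.26 ± 0.357 to 0.547 ± 0.288 CPM, SD, n = 3 each, with log2FC -2.001 and edgeR FDR 0.0409). The call of INSM2 held in 2 of the 6 fits that left a library out. In pre-treatment over 5 libraries 4 fell and none rose (22.2% called, against 11.2% of all genes), among them CREB3L2 (log2FC -1.99, edgeR FDR 0.000823) and the CREB coactivators CRTC1 (log2FC -1.505, edgeR FDR 0.00121) and CRTC3 (log2FC -1.05, edgeR FDR 0.00294). Control replicate 3 lay within the treated range for CREB3L2 (33.3 CPM against 31.2 to 45.2) and CRTC1 (14.7 CPM against 12.97 to 17.9). For CRTC3 it lay above that range (34.8 CPM against 24.7 to 30.45). The list's median log2FC was -0.41 against 0.01 over all genes tested. Over 6 libraries no gene of any of these 5 lists was called by edgeR's quasi-likelihood test.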

How the data were processed

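RNA-seq after ribosomal RNA depletion was available for 12 SH-SY5Y libraries. The authors trimmed reads with cutadapt 2.10, mapped them to hg19 with HISAT2 2.1.0 and counted them per gene with HTSeq 0.7.2, and the deposited counts are unnormalized. The 5 closing entries for uncounted reads stayed out of library sizes. The authors' tables of fold changes, p-values and FDR were not used. The annotation version is not given in the sources used here. No column was left unmapped.

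The analysis used R 4.3.3 and, within it, edgeR 4.0.16 (TMM factors, quasi-likelihood test, Benjamini-Hochberg adjustment over all genes tested), limma 3.58.1 and DESeq2 1.42.0. A gene was tested if its CPM was at least what 5 counts give in the smallest library, in a number of libraries equal to the size of the smaller group. CPM levels use TMM factors over all 12 libraries. Exon lengths and positions come from GENCODE on GRCh37 (hg19), promoters from RefSeq. SE is the log2FC divided by the root of the F statistic. Each fit was repeated with DESeq2, limma-voom, other scalings and filters, robust estimation, a replicate block and leaving out each library. The exact test of edgeR was run for every fit but the interaction. A fit over all 12 libraries was run for co-treatment, pre-treatment over 6 libraries and the interaction. Fits were tested on simulated data. The 10 members and all lists were chosen with earlier results of these data known. From each list the called genes with the smallest FDR were named, at most 3 per direction and comparison, with interaction calls, receptors and the 3 genes most like each called member. Whether replicate numbers pair the samples is not stated in the sources used here. Residuals of libraries sharing a number correlated by -0.0785, -0.0786 and -0.0435 in co-treatment and by 0.0917 and 0.00287 in pre-treatment. These correlations cannot decide the question, because each residual is taken from the mean of only a few libraries. Some called genes of the lists are not reported here.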

Additional observations from a re-analysis of the deposited data

Results flagged for a closer look

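None of the 10 neuropeptide and granule genes was singled out. Of the genes named from the lists followed beside them, 9 were called in the interaction test of edgeR over 11 libraries, beside 8.02% of 25668 genes tested. By list, the share called was 27.8% of 18 transcription factors and coactivators, 15.8% of 38 granule membrane and release genes and 6.25% of 16 granin and processing genes. It was 3.85% of 26 other peptide precursors and 0% of 12 receptors. The difference (pre-treatment minus co-treatment log2FC) was -1.91 for CREB3L2 (FDR 0.00706), -1.77 for VAMP2 (FDR 0.00779) and -1.61 for CRTC1 (FDR 0.0135). It was -1.43 for RPH3AL (FDR 0.0325), -1.22 for CREB5 (FDR 0.0178), -1.08 for CRTC3 (FDR 0.0384) and -1 for SLC18A1, the vesicular monoamine transporter of chromaffin cells (FDR 0.0176). It was positive for ADM, the adrenomedullin precursor (1.18, FDR 0.0203), and for CTSL, a lysosomal protease that also cuts prohormones (0.87, FDR 0.0249). These values rest on pre-treatment controls 1 and 2. Control replicate 3 lay within or below the treated range for CREB3L2 (33.3 CPM), VAMP2 (4.97), CRTC1 (14.7), RPH3AL (2.805) and CREB5 (13.1). For CRTC3 (34.8 CPM) and SLC18A1 (70.4) it lay above all treated samples. Among the genes with a positive difference, control replicate 3 lay within the treated range for ADM (19.05 CPM against 16.73 to 21.61). For CTSL it lay above all treated samples (40.48 CPM against 32.09 to 38.19), against the direction of the rise over controls 1 and 2. With pre-treatment control replicate 3 included, 7 genes in all were called in the interaction test, against 2058 without it.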

How the results depend on the processing

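The 9 tested members were refitted 630 times over 36 results, of which 572 kept their direction and side of the threshold, 6 lost a call, 18 gained one and 34 turned direction. For genes named from the lists, 476 refits of 28 results kept 411 and lost the call in 65. The cause was not tested. Counts of calls moved as follows. In co-treatment, 132 genes were called, 307 by the exact test, 307 by DESeq2, 80 with library size alone, 443 without a filter, 3 in 1 fit over 12 libraries and 18 to 218 with a library left out. In pre-treatment over 5 libraries, 2952 were called and 1064 to 3540 with a library left out, the lowest without control replicate 2. Over 6 libraries, 6 were called, 231 by the exact test, 501 by DESeq2, 0 by limma-voom (2445 at an unadjusted p under 0.05), 1 with library size alone, 300 without a filter, 61 in the fit over 12 libraries and 0 to 2952 with a library left out, the highest without control replicate 3. In the interaction, 2058 were called, 3386 by DESeq2, 3847 without a filter, 7 with all 12 libraries and 321 to 4499 with a library left out.

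With the replicate number as a block, 180, 3767, 0 and 2684 genes were called in co-treatment, pre-treatment over 5 and 6 libraries and the interaction (1957 at an unadjusted p under 0.05 over 6 libraries). No source used here says that the numbers pair samples. Over 5 libraries and in the interaction, pre-treatment treated replicate 3 was alone in its block, so it did not inform the treatment effect. The block turned the interaction of CALCA (0.65), CALCB (0.39), GAL (0.027) and SCG2 (0.33) and the 6-library log2FC of SCG2 (-0.064).

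Near-0 log2FC also turned for SCG3 in co-treatment and CHGB in the interaction with library size alone (0.004 and -0.039), and for SCG2 over 6 libraries by DESeq2 (-0.026), limma-voom (-0.109), RLE factors (-0.026), library size (-0.022) and the fit over 12 libraries (-0.019). With a library left out, log2FC ranged in co-treatment from -0.14 to 0.12 for SCG3, -0.053 to 0.122 for CHGB and -0.19 to 0.07 for NPY, in pre-treatment from -0.73 to 0.28 for CHGA over 5 libraries and -0.31 to 0.37 for SCG2 over 6. The interaction ranged from -0.80 to 1.24 for CALCA, -1.14 to 1.18 for CALCB, -0.015 to 0.559 for CHGB, -0.46 to 0.34 for GAL and -0.36 to 0.32 for SCG2. With the longest transcript as length, co-treatment control levels per kb were 5.46 for CALCA, 5.73 for CALCB, 4.78 for NPY, 124 for GAL, 413 for CHGA and 94.2 for CHGB, which puts CALCB above CALCA and CHGA above SCG2.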

Other observations

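The genes whose pattern over the 12 libraries was most like that of CALCA, by the root mean square difference of centred log2 CPM among 24406 genes, were CALCB (0.36), RP3-422G23.4 (0.42) and SLC35F1 (0.53), against a median of 1.25 over all genes. For CALCB they were CALCA (0.36), PLK2, a stress-responsive kinase (0.43), and INSC (0.46), against a median of 1.24. INSC lies on the same strand as CALCB, 30081 bases beyond its end in the annotation on hg19. For VIP they were BEND6 (0.24), DCAF4 (0.25) and LACTB2 (0.25), against a median of 0.74. Likeness is given as a description, and these genes were measured in the same libraries.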
